A study of Mus musculus with 18 samples.

Results

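Inguinal white adipose tissue (iWAT) of mice that lack the long noncoding RNA Gm15551 was compared with iWAT of wild type litter mates by RNA-seq. The comparison used the 6 iWAT libraries, 3 labelled ko and 3 labelled wt, of the 18 libraries in the series. They were chosen by the tissue and genotype in their names, and nothing measured entered the choice. All mice were 12 weeks of age, on the C57BL/6N background and fed a chow diet. The ko mice (ΔGm15551) carried a CRISPR/Cas9 deletion that includes exon 1 of the gene, and the wt mice were litter mates. The labels give the genotype as ko or wt and do not say whether both alleles carried the deletion, which the study states as homozygous for the mice of its metabolic tests. The other 12 libraries were interscapular brown (iBAT) and epididymal white (eWAT) adipose tissue of the same 6 mice, by the mouse identifiers in the labels. Whole tissue and not sorted adipocytes was sequenced, so each library also held the other cells of the fat pad.

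iWAT is a subcutaneous fat depot of the groin. Its white adipocytes store and release triglyceride, and some of its adipocytes can take on a heat-producing, beige state. The pad also holds progenitors with their collagen matrix, vessels, macrophages and a lymph node, and it lies between skin and muscle. Gm15551 is transcribed antisense to Camk2d, which encodes a calcium/calmodulin-dependent kinase, from within one of its introns. Long noncoding RNAs can act on the locus they come from or on distant genes, so both the neighbours and the whole transcriptome were read out.

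The deleted gene itself was read out before any other. Gm15551, with the identifier ENSMUSG00000086679.2, has exon 1 at chr3:126668845-126669044 and exon 2 at chr3:126667329-126667663 on the minus strand (GRCm38). The stretch around its start is shown because exon 1 is the part that the deletion includes. The 149 lower case bases lie before exon 1 and the 151 capitals are the first bases of exon 1 in GENCODE M21.
Gm15551 start, chr3:126668894-126669193, minus strand, RefSeq GRCm38.p6: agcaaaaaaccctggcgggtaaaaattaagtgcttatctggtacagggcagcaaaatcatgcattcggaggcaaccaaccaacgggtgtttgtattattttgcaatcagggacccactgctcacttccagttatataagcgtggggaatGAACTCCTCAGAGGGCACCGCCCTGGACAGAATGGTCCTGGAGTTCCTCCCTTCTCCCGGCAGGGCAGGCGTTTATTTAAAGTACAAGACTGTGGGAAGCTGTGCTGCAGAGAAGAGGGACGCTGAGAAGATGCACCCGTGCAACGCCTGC

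The ends of the deletion were not placed on this sequence, because the coordinates printed in the methods do not overlap the annotated position of the gene in this build.

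Gm15551 was near 0 in all 3 ko libraries. It had 316, 177 and 59 counts in wt and 1, 1 and 0 in ko, in the order of replicates 1 to 3. As CPM (counts per 1000000 of the scaled library), these were 10.3, 6.12 and 1.95 CPM in wt and 0.0387, 0.0428 and 0 CPM in ko. The groups did not overlap, and the lowest wt library still lay at least 16.5-fold above the mean level that 3 counts would give in the ko libraries. The wt libraries themselves spread 5.27-fold between wt 1 and wt 3, compared with 2.41-fold for Adipoq, the gene of the adipocyte hormone adiponectin.

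**Figure D1:**
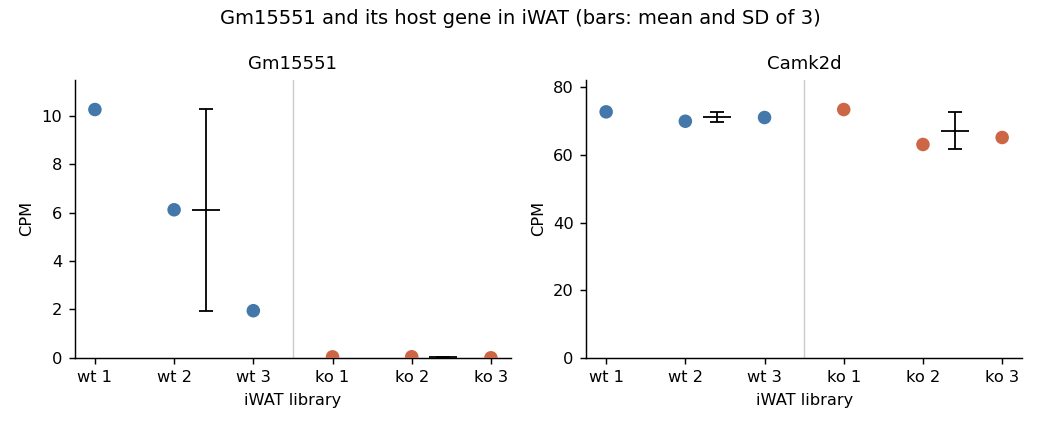
Gm15551 (left) and its host gene Camk2d (right) in CPM in each iWAT library, wt in blue and ko in orange; black bars give the mean and the SD of 3 libraries. Gm15551 lies at 10.3, 6.12 and 1.95 CPM in wt and at or next to 0 in ko, while the Camk2d values of the genotypes overlap.

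The mean of Gm15551 was 6.11 ± 4.16 CPM in wt (SD, n = 3) and at least 51.7-fold lower in ko. The edgeR log2 fold change was -7.58 ± 0.96 (SE) with an adjusted p of 0.0551, which is above the threshold of 0.05. DESeq2 gave an adjusted p of 4.34e-07. The fitted value depends on the prior count, since the ko libraries held 0 or 1 count. The exact permutation test on the 6 libraries gave p = 0.10, the smallest value that 3 against 3 allows. Without wt 3, the library with the lowest wt value, the edgeR adjusted p was 0.0130. Over 17 alternatives, DESeq2 and limma included, adjusted p ran from 4.34e-07 to 1. None of the 31-base words of the Gm15551 transcript occurred in another gene of GENCODE M21.

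Lists of genes that mark single cell types were then summed in each library, to see which of them held tissue other than fat. The lymph node list, which holds B cell genes such as Cd79a and Pax5, T cell genes such as Cd3e and Cd8a, and the lymph node chemokines Ccl19, Ccl21a and Cxcl13, came to 17.5, 42 and 2205 CPM in wt 1, 2 and 3 and 28.3, 877 and 32 CPM in ko 1, 2 and 3. Thus wt 3 and ko 2 stood apart, 1 in each genotype, and all 23 genes of the list were highest in wt 3. Glycam1, a product of the high endothelial venules of lymph nodes, had 0, 0 and 2190 counts in wt and 0, 541 and 3 in ko.

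The skeletal muscle list came to 10.3, 7.71 and 23.1 CPM in wt 1, 2 and 3 and 5476, 14.2 and 10.7 CPM in ko 1, 2 and 3. Only ko 1 held it in quantity, and there 18 of the 20 genes had their highest value. Myh4, the fast myosin heavy chain, had 1, 5 and 3 counts in wt and 44364, 3 and 3 in ko, while the slow and oxidative myosins Myh7 and Myh2 reached 0 and 39 counts in ko 1.

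The epithelial list followed neither label. With the adhesion gene Epcam, the keratins Krt8, Krt18 and Krt19, Cdh1, Cldn3 and Cldn4, it came to 4.22, 3.08 and 83.3 CPM in wt 1, 2 and 3 and 4.41, 115 and 199.8 CPM in ko 1, 2 and 3. It was high in wt 3, ko 2 and ko 3 and near 0 in the others. Only wt 1 and wt 2 were low in all 3 lists, so no ko library was without at least 1 of these tissues.

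The adipocyte list, with Adipoq, Plin1, Fabp4 and Lpl among its 14 genes, was lowest where the lymph node list was highest. It came to 49153, 53210.0 and 21115 CPM in wt 1, 2 and 3 and 44802, 28472 and 47634 CPM in ko 1, 2 and 3. These are bulk libraries, and CPM are shares of a library. Fewer adipocytes, less adipocyte RNA per cell and more RNA from other cells therefore cannot be told apart. Total counts of the 6 libraries ran from 18385784 to 27410053, and 3.99% to 9.64% of them came from the mitochondrial genome.

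**Figure D2:**
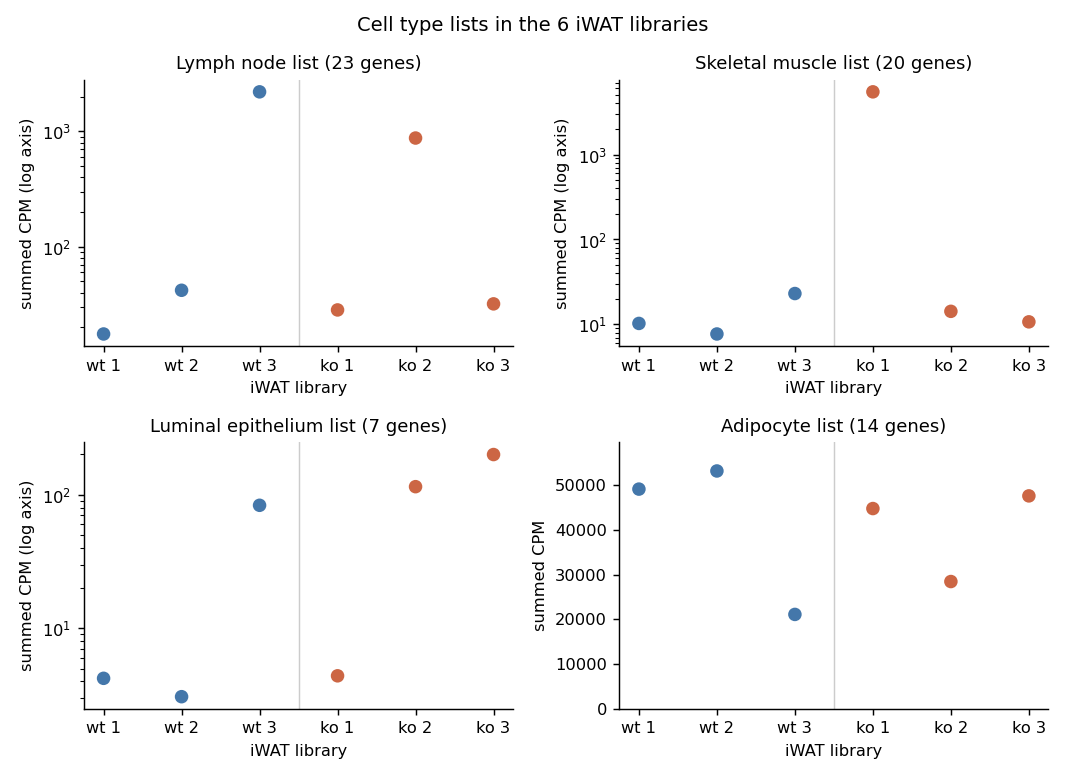
Summed CPM of 4 gene lists in each iWAT library, wt in blue and ko in orange; the first 3 panels have a log axis and the adipocyte panel starts at 0. The lymph node list stands out in wt 3 and ko 2 (2205 and 877 CPM), the muscle list in ko 1 (5476 CPM) and the epithelium list in wt 3, ko 2 and ko 3 (83.3, 115 and 199.8 CPM).

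Across the transcriptome, edgeR called 0 of 18728 genes between ko and wt iWAT at an adjusted p of 0.05 (percent called 0). At an unadjusted p under 0.05, 317 genes were higher in ko (1.69% of those tested) and 98 were lower (0.523%). limma with quality weights also called 0 genes, and DESeq2 called 4 (0.0214%): Gm15551 lower, and Aldh1a3, Txlnb and the pseudogene Gm2436 higher in ko. In 524 genes every ko library lay above every wt library (2.8%), and in 398 every ko library lay below (2.13%).

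Most of the 317 genes that were higher had their highest value in the muscle-containing library. For 204 of them (64.4%), ko 1 was the highest library, compared with 65 for ko 2 and 48 for ko 3. In 35 of them ko 1 exceeded each of the other 5 libraries by more than 10-fold. When ko 1 was left out, 113 (35.6%) still had an unadjusted p under 0.05 in the same direction. Without wt 3 alone 174 (54.9%) and without ko 2 alone 207 (65.3%) did. Without both lymph node libraries 147 (46.4%) did, and without the lymph node and muscle libraries together 44 (13.9%) did. Leaving out libraries with neither tissue also cost genes, with 155 (48.9%) left without wt 2, 198 (62.5%) without wt 1 and 258 (81.4%) without ko 3. In the fit without the lymph node and muscle libraries only wt 1, wt 2 and ko 3 remained in iWAT, and the single ko library was assumed to vary like the others.

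The 98 genes that were lower were most often highest in the lymph node library of the wt group. In 52 of them wt 3 was the highest library, while wt 1 and wt 2 were highest in 23 each. Without wt 3 and ko 2, 32 (32.7%) still had an unadjusted p under 0.05, and without ko 1 as well, 13 did. Leaving out ko 1 alone left 31, leaving out wt 3 alone left 42, and leaving out wt 1 or wt 2 left 60 and 68. Of the 98 genes, 61 did not overlap between the groups, beside 2.13% of all genes with every ko library below every wt library. Of the 317, 141 did not overlap, beside 2.8% of all genes with every ko library above. Both sets were picked by a small p on the same values, which favours such a separation.

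**Figure D3:**
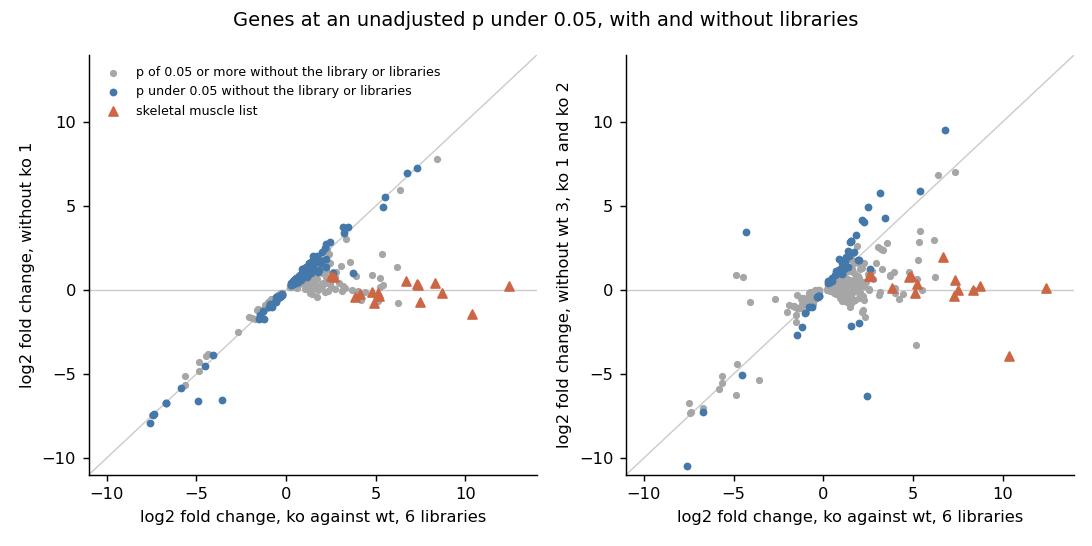
Each point is a gene at an unadjusted p under 0.05 in the comparison of the 6 libraries, with its log2 fold change there (x axis) against that without ko 1 (left) or without wt 3, ko 1 and ko 2 (right); the diagonal marks equal values. Genes of the skeletal muscle list (orange triangles) drop from up to 12.4 on the x axis to values around 0 when ko 1 is left out.

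Muscle genes gave the largest differences. Of the 18 muscle list genes that could be tested, 16 had an unadjusted p under 0.05 and all 16 were higher in ko, beside 1.69% of all genes. With DESeq2 17 were higher and 3 of them at that p. DESeq2 did not give every gene an adjusted p, and Myh4 had none there at a log2 fold change of 12.47. Genes left without a p may therefore be among the others, and the 3 is not a like count to the 16. From the iWAT libraries alone 13 were higher, 8 of them at that p. The median log2 fold change of the list was 5.16, compared with -0.01 over all genes tested. Leaving out ko 1 brought the median to -0.16 and the number at an unadjusted p under 0.05 to 0. Pvalb, the calcium buffer of fast fibres, had 4286 counts in ko 1 and at most 1 in any other iWAT library, and the filter on low counts removed it because a single library carried it.

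Atp2a1, the calcium pump of the sarcoplasmic reticulum, had 0.422, 0.553 and 1.06 CPM in wt and 857, 0.599 and 0.587 CPM in ko. Ckm, the muscle creatine kinase, had 0.0974, 0.0691 and 0.198 CPM in wt and 495, 0.0855 and 0 CPM in ko. Actn3, an actin crosslinker of fast fibres, had 0.195, 0.311 and 0.264 CPM in wt and 251, 0.428 and 0.257 CPM in ko. In each of these the 2 remaining ko libraries lay within or next to the wt values, and the log2 fold changes of 8.71, 10.34 and 8.33 became -0.19, -1.46 and 0.40 without ko 1.

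2 genes outside the muscle list that were highest in ko 1 kept a difference of smaller size without it. Txlnb, a taxilin best known from striated muscle, had 0.39, 0.38 and 0.396 CPM in wt and 13.9, 0.813 and 0.734 CPM in ko, and its log2 fold change of 3.71 became 0.98 without ko 1. Ank1, an ankyrin with a muscle form, had 0.52, 1.14 and 1.29 CPM in wt and 14.1, 2.01 and 2.02 CPM in ko, and its value of 2.61 became 1.03. In both genes all 3 ko libraries lay above all 3 wt libraries. Camk2a, a kinase relative of Camk2d, was high in ko 1 too, with 1.46, 1.59 and 3.79 CPM in wt and 16.1, 2.44 and 1.1 CPM in ko.

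Lymphoid genes gave large differences that did not exceed the spread between libraries of one genotype. All 22 tested genes of the lymph node list had a negative log2 fold change, with a median of -1.25, and 0 of them reached an unadjusted p under 0.05. Without wt 3 and ko 2 the median was -0.41, with 7 genes higher and 15 lower. Cd79a, a part of the B cell receptor complex, had 0.974, 3.32 and 229.8 CPM in wt and 0.58, 96.8 and 1.32 CPM in ko, so the ko library with a node lay below the wt library with a node.

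Antibody genes, which were looked at after their values were seen, were more unequal between these libraries than Cd79a. Ighg1, an immunoglobulin heavy chain, had 0, 15 and 13934 counts in wt and 13, 209 and 0 in ko. Igkc, the kappa light chain, had 126, 146 and 17212 counts in wt and 257, 2678 and 58 in ko, and Jchain, which joins secreted antibodies, had 48, 46 and 2269 counts in wt and 78, 185 and 30 in ko. Between the node-containing libraries, Ighg1 was 459 CPM in wt 3 and 8.94 CPM in ko 2, a wider gap than that of Cd79a.

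Genes that were high in the libraries with luminal epithelium led the fit without the lymph node and muscle libraries. There 279 of 21114 genes (1.32%) had an unadjusted p under 0.05 and were higher in ko, and the 5 with the smallest p were Fcgbp, Tlcd4, Prlr, Trim29 and Fgg. Fcgbp, a mucosal IgG Fc binding protein, had 0.0649, 0.0691 and 11.7 CPM in wt and 0, 15.4 and 37.9 CPM in ko. Prlr, the prolactin receptor, had 6.88, 8.02 and 24.7 CPM in wt and 7.73, 23 and 50.1 CPM in ko. Fgg, a fibrinogen chain, had 0.162, 0 and 5.9 CPM in wt and 0, 8.85 and 14.2 CPM in ko. Each was high in the 3 libraries with luminal epithelium, so that ko 3, the only ko library in that fit, carried the difference.

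3 genes of milk and of mammary epithelium, chosen after their values were seen, were high in the same 3 libraries. The kappa casein gene Csn3 had 3, 10 and 251 counts in wt and 3, 357 and 876 in ko. Ltf, which encodes lactoferrin, had 1, 0 and 1438 counts in wt and 0, 594 and 1821 in ko. Elf5, a transcription factor of luminal epithelial cells, had 15, 5 and 71 counts in wt and 5, 55 and 111 in ko. All 3 were highest in ko 3, and wt 1, wt 2 and ko 1 were low. The basal keratin Krt5 had 0, 0 and 79 counts in wt and 0, 122 and 189 in ko, and Krt14 had 0, 0 and 57 counts in wt and 0, 84 and 122 in ko. Krt1, a keratin of the upper skin, had at most 1 count in any iWAT library, while Sbsn, another gene of the upper epidermis, was highest in ko 1. Of the 7 luminal genes, 7 had a positive log2 fold change with a median of 1.81 and 0 reached an unadjusted p under 0.05. The median was 0.97 without ko 3, 2.40 without ko 1, 7.07 without the lymph node libraries and 8.07 without the lymph node and muscle libraries. Without the lymph node libraries 2 of the luminal genes were higher at that p, beside 295 of all genes.

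Genes of the adipocyte itself had small median differences. Of 14 common adipocyte genes, 4 had a positive and 10 a negative log2 fold change, with a median of -0.03 and 0 at an unadjusted p under 0.05. The median was -0.36 without wt 3 and 0.18 without wt 1, so its sign depended on the libraries used. Adipoq had 2224, 2183 and 922 CPM in wt and 2113, 1258 and 1807 CPM in ko. Its log2 fold change was -0.04 ± 0.38 (SE). Pparg, the master regulator of adipocyte differentiation, had 246, 273 and 90.6 CPM in wt and 147, 135 and 166 CPM in ko, and Lep, the gene of the satiety hormone leptin, had 499, 471 and 73.3 CPM in wt and 412, 211 and 191 CPM in ko. In all 3 genes wt 3 was the lowest library, which is also the library with the most lymph node RNA.

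Heat-producing genes spread widely within each genotype. Of 18 genes, 12 were higher in ko, with a median log2 fold change of 0.16 and 0 at an unadjusted p under 0.05. The median ran from -0.24 without wt 3 to 0.69 without wt 2. Ucp1, the uncoupling protein of heat-producing adipocytes, had 83, 1600 and 3 counts in wt and 83, 386 and 505 in ko. Its wt values alone spanned the ko values on both sides, and the log2 fold change was -0.60 ± 1.26 (SE). Cidea, a lipid droplet protein of beige and brown cells, had 48.9, 127 and 10.3 CPM in wt and 38.2, 58.4 and 153 CPM in ko. Without wt 2, the library with the most Ucp1, the Ucp1 value turned to 3.18, and the cause of the spread among wt libraries was not tested.

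Lipid metabolism showed 0 genes at an unadjusted p under 0.05 in 6 lists. The median log2 fold change was 0.07 for 15 genes of fatty acid synthesis, -0.04 for 8 of triglyceride synthesis, 0.06 for 8 of lipolysis, 0.06 for 15 of fatty acid oxidation, -0.05 for 14 of cholesterol synthesis and 0.09 for 11 of insulin signalling. Scd1, which makes monounsaturated fatty acids, had 18692, 19757 and 2656 CPM in wt and 34031, 12402 and 14449.9 CPM in ko. Fasn, the fatty acid synthase, had 10809.9, 16804 and 2031 CPM in wt and 17752, 9417 and 11061 CPM in ko. For both, wt 3 was the lowest and ko 1 the highest library. The 13 genes that mitochondrial DNA encodes for proteins had a median of -0.06 and the 94 respiratory chain genes of the nucleus one of -0.10, with 0 at an unadjusted p under 0.05 in either. Of the 94, 86 were lower and 8 higher, beside 47.4% of all genes higher. Without ko 3, 93 were lower (median -0.30), and without both lymph node libraries 90 were (-0.18). Without the lymph node and muscle libraries 57 were lower, and with lymph node, muscle and epithelium covariates 83 were higher (0.21). The median of the 94 was 0.14 without wt 2.

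These medians moved with single libraries. Fatty acid synthesis ran from -0.27 without wt 3 to 0.43 without wt 2, and triglyceride synthesis from -0.40 to 0.32 without the same libraries. Lymph node, muscle and epithelium covariates were chosen after seeing the data. The fit with them put 1281 of all genes higher and 709 lower at an unadjusted p under 0.05. Higher at that p were 10 genes of fatty acid synthesis, 14 of fatty acid oxidation, 6 of lipolysis, 4 of triglyceride synthesis and 4 of insulin signalling. So were 8 of the thermogenic and 8 of the adipocyte list, and 1 of fatty acid synthesis was lower. Each covariate had the same slope in all 18 libraries, and the epithelium list was highest in eWAT ko 3 (1321 CPM). The fit is therefore not an adjustment within iWAT alone.

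The cholesterol list moved with single libraries as well. Its median was 0.09 without ko 3, where 10 of 14 genes were higher, and -0.47 without ko 1, with 0 at an unadjusted p under 0.05 in either. Without the lymph node and muscle libraries it was -0.84, and 13 of 14 genes had a negative log2 fold change. Hmgcs1, an early enzyme of the pathway, had 326, 156 and 50.9 CPM in wt and 397, 95.9 and 90.3 CPM in ko. wt 1 and ko 1 shared the high values.

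Collagen and matrix genes lay higher in ko, without a call. All 17 of the list had a positive log2 fold change, with a median of 0.44, and 2 had an unadjusted p under 0.05. Over all genes, 47.4% had a positive value and 1.69% were higher at that p. The 2 were Fbn1, the fibrillin of elastic microfibrils, with 49.8, 50.5 and 71.9 CPM in wt and 169, 248 and 37.9 CPM in ko, and Col1a1, a chain of type I collagen, with 922, 878 and 1095 CPM in wt and 1469, 3206 and 735 CPM in ko. In both, ko 1 and ko 2 were above every wt library, and ko 3 was below all of them. Without ko 3 the median was 0.68 with 8 genes higher at that p, beside 547 of all genes. Without both lymph node libraries it was 0.17 with 1, beside 295 of all genes. With lymph node, muscle and epithelium covariates it was 0.94 with 11, beside 1281 of all genes. Without wt 3, ko 1 and ko 2 the median was -0.34 and 16 of 17 genes were lower in ko.

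The progenitor list was also high in ko 1 and ko 2 and lowest in ko 3. Of 12 genes, 10 were higher in ko, with a median of 0.56, beside 47.4% of all genes. Pi16, a marker of adventitial progenitors, had an unadjusted p under 0.05, beside 1.69% of all genes higher at that p. Without ko 3 the median was 0.82 and 6 genes were higher at that p, beside 547 of all genes. With lymph node, muscle and epithelium covariates 5 were, beside 1281 of all genes. Pi16 had 56.6, 37.2 and 45.8 CPM in wt and 459.9, 173 and 30.5 CPM in ko. Gpc3, a heparan sulfate proteoglycan of growing mesenchyme, had 6.04, 6.46 and 6.56 CPM in wt and 38, 17.1 and 1.43 CPM in ko, and its log2 fold change of 1.57 turned to -2.13 without the lymph node and muscle libraries. The difference in these genes therefore rested on ko 1 and ko 2, and ko 3 had the opposite direction.

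Among immune genes outside the lymphocytes, the macrophage list was again highest in the libraries with a lymph node, at 2138 CPM in wt 3 and 2144 CPM in ko 2. Of 12 macrophage genes, 10 were higher in ko (median 0.37), beside 47.4% of all genes. The median was 1.30 without wt 3, -0.27 without ko 2 and 0.60 without both, where all 12 were higher. Cd163, a scavenger receptor of resident macrophages, was the 1 with an unadjusted p under 0.05, beside 1.69% of all genes higher at that p, with 33.9, 18 and 18.3 CPM in wt and 92.7, 54.8 and 24.7 CPM in ko. With lymph node, muscle and epithelium covariates 11 of the 12 were higher at that p (median 0.96), in the fit that put 1281 of all genes higher. Of 13 interferon-induced genes, 12 were higher in ko with a median of 0.64, and 12 were highest in ko 2. At an unadjusted p under 0.05, 1 was higher with all libraries and 4 without ko 1, where the median was 0.93 and 184 of all genes were higher at that p. With the covariates 8 were. Ifit2, the 1 at that p with all libraries, had 11.2, 12.3 and 13.8 CPM in wt and 13, 48.5 and 11.1 CPM in ko. Without wt 3 and ko 2 the interferon median was -0.22, so the positive median was lost without these libraries.

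Smooth muscle and pericyte genes lay higher in ko without a call. All 8 had a positive log2 fold change with a median of 0.39, which was 0.37 without the lymph node libraries, 0.39 without ko 1 and 0.46 without all of these, where 6 of the 8 were higher. Leaving out single libraries moved it from 0.29 without wt 3 to 0.62 without wt 1. Myh11, the smooth muscle myosin, had 57.6, 42.2 and 45.9 CPM in wt and 77.8, 69.1 and 89.3 CPM in ko. Acta2, the smooth muscle actin, had 70.7, 46 and 67.2 CPM in wt and 77.4, 82 and 108 CPM in ko. In these and in Tagln every ko library lay above every wt library, as in 2.8% of all genes, but 0 of the 8 reached an unadjusted p under 0.05.

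The remaining lists held 1 gene at an unadjusted p under 0.05. It was Sbsn, with 11.1, 8.95 and 11.4 CPM in wt and 33.6, 22.2 and 13.7 CPM in ko, beside 1.69% of all genes higher and 0.523% lower at that p. The medians were 0.20 for 10 endothelial genes, -0.03 for 15 genes of the circadian clock, 0.04 for 13 immediate early genes, 0.01 for 7 Schwann cell genes, 0.64 for 6 mesothelial genes, 0.53 for 5 erythroid genes, 1.62 for 4 epidermal genes and 0.04 for 3 inflammatory genes. Leaving out single libraries moved them, for example from 0.0092 without wt 3 to 0.34 without wt 1 for endothelium, from -0.29 without wt 3 to 0.23 without wt 2 for the clock and from 0.20 without ko 1 to 0.69 without ko 3 for the erythroid genes. With lymph node, muscle and epithelium covariates 6 endothelial, 5 erythroid, 2 immediate early and 1 each of the clock, epidermal and mesothelial genes were higher at that p, beside 1281 of all genes. All 5 erythroid genes were highest in ko 1, where their sum was 1764 CPM against 854 to 1148 CPM in the other libraries.

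**Figure D4:**
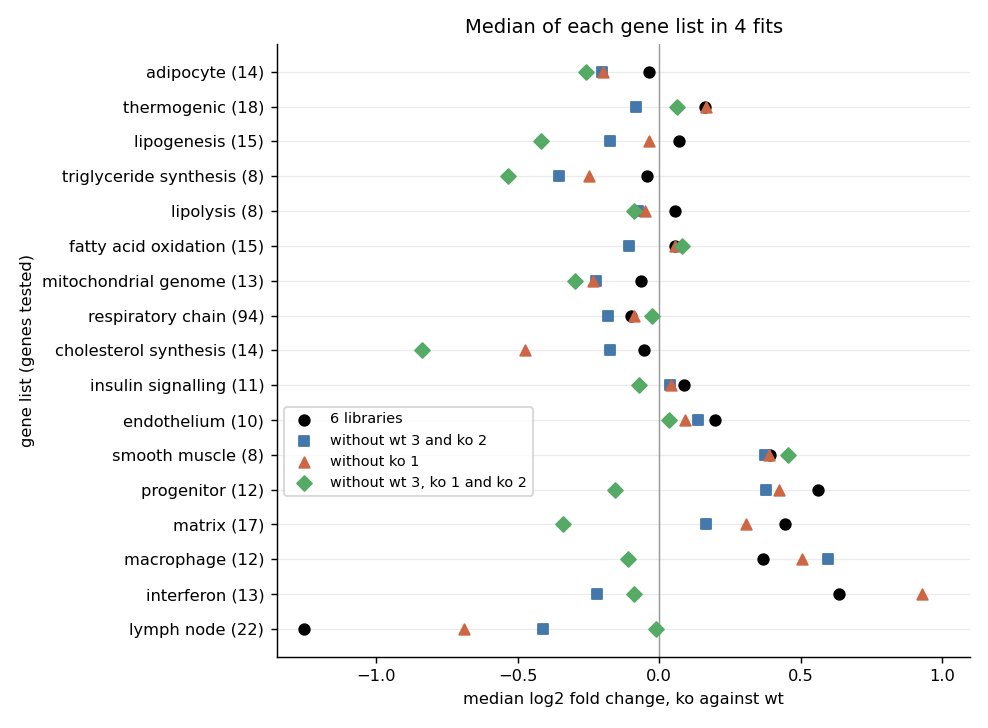
Median log2 fold change of ko against wt (x axis) for 17 gene lists, with the number of genes tested in brackets, in 4 fits that differ in the iWAT libraries used. The medians of the matrix, progenitor, macrophage and interferon lists lie above 0 with all 6 libraries and below 0 without wt 3, ko 1 and ko 2 (green diamonds), while the smooth muscle median stays between 0.37 and 0.46.

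Few genes kept a small p in every fit. In 9 fits, those with all libraries, without each of the 6 in turn, without both lymph node libraries, and without the lymph node and muscle libraries, 20 genes had an unadjusted p under 0.05 in the same direction each time. Of these 16 were higher in ko (0.0854% of genes tested) and 4 lower (0.0214%), Gm15551 among them. They were picked out after their values were seen, the fits share libraries, and 0 of them passed the adjusted threshold with all libraries.

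Aldh1a3, which makes retinoic acid from retinal, had the smallest unadjusted p among the genes higher in ko. It had 3.6, 3.42 and 8.21 CPM in wt and 24.6, 20.7 and 12.3 CPM in ko, from 111, 99 and 249 counts in wt and 635, 484 and 334 in ko. The groups did not overlap, and ko 3, which holds neither node nor muscle, was the ko library closest to wt. The log2 fold change was 1.91 ± 0.40 (SE), and it was 2.39 without the lymph node libraries, 1.70 without ko 1 and 1.79 without all 3. The edgeR adjusted p was 1, and DESeq2 gave 0.0218, the lowest of the alternatives, which ran up to 1. In the other tissues of the same mice the log2 fold change was 0.07 in iBAT and -0.23 in eWAT.

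Txnip, an inhibitor of thioredoxin that curbs glucose uptake, had 797, 519 and 663 CPM in wt and 1860.3, 896 and 1681 CPM in ko. Sik1, a kinase that cAMP signalling induces, had 25.2, 14.5 and 31.8 CPM in wt and 48.3, 60.6 and 53.6 CPM in ko. Their log2 fold changes were 1.17 ± 0.38 (SE) and 1.18 ± 0.35 (SE), and over the 9 fits they ran from 0.97 to 1.43 and from 0.92 to 1.45. Sik1 also differed in the same direction in iBAT (1.76), where it had 26.4, 15 and 24.9 CPM in wt and 56.8, 119.6 and 47.7 CPM in ko, and hardly in eWAT (0.14). Both genes showed no overlap between the iWAT groups, in Txnip by the small distance between wt 1 and ko 2.

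Further protein-coding genes of this kind had moderate differences. Dll1, a ligand of Notch receptors, had 6.01, 6.12 and 7.52 CPM in wt and 9.86, 10 and 11.5 CPM in ko. Casz1, a zinc finger transcription factor, had 10.4, 7.81 and 10.3 CPM in wt and 13.1, 13.5 and 19.7 CPM in ko. Papln, an extracellular matrix protein, had 3.51, 5.25 and 5.18 CPM in wt and 8.04, 17.1 and 21 CPM in ko, with log2 fold changes from 1.43 to 2.26 over the 9 fits. All 3 were highest in ko 3, which holds the most luminal epithelium. With lymph node and muscle covariates their log2 fold changes were 0.71 for Dll1, 0.78 for Casz1 and 2.08 for Papln. With a luminal epithelium covariate as well they were 0.33, 0.87 and 1.31. That covariate had the same slope in all 18 libraries, and its list was highest in eWAT ko 3 (1321 CPM). These shifts are therefore not an adjustment within iWAT alone. Smg6, a nuclease of nonsense-mediated decay, differed by 0.31 ± 0.09 (SE).

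Genes that were lower in this way were fewer. Prpsap2, a partner of the enzymes that make phosphoribosyl pyrophosphate, had 22.6, 22.2 and 20 CPM in wt and 17.6, 16.8 and 16.7 CPM in ko. Its log2 fold change of -0.34 ± 0.12 (SE) was small, and the groups did not overlap. Of its 31-base words, 40.9% also occurred in other annotated genes.

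**Figure D5:**
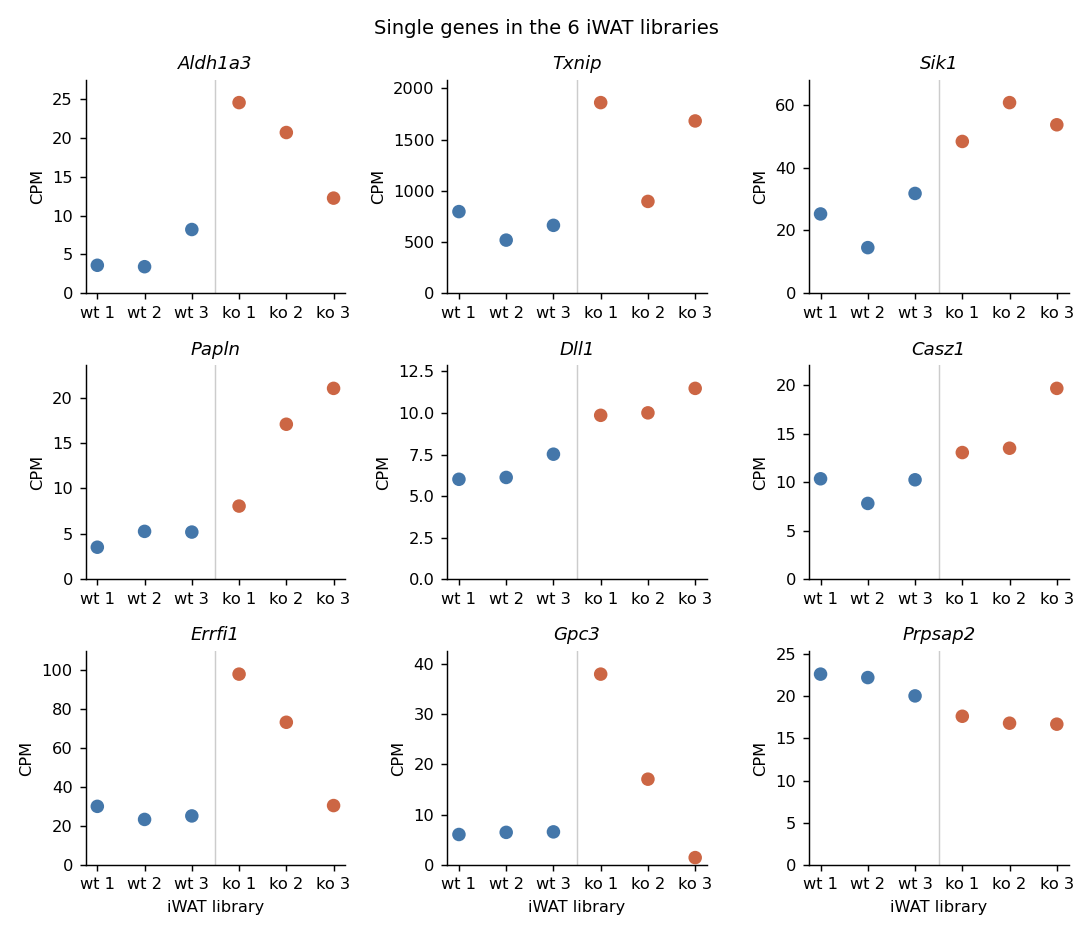
CPM of 9 genes in each iWAT library, wt in blue and ko in orange, on axes that start at 0. Aldh1a3, Txnip, Sik1, Papln, Dll1 and Casz1 lie higher and Prpsap2 lower in all 3 ko libraries, whereas Errfi1 is carried by ko 1 and ko 2 and Gpc3 is lowest in ko 3.

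Errfi1, a feedback inhibitor of the EGF receptor, is a case between these. It had 30, 23.3 and 25.1 CPM in wt and 97.8, 73.1 and 30.4 CPM in ko, with no overlap between the groups and a log2 fold change of 1.36 ± 0.35 (SE). Without the lymph node and muscle libraries this became 0.18, since ko 3 lay next to wt 1.

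Several genes that were present in one genotype and at 0 in the other were near-identical copies. Fam205a4 had 24, 30 and 32 counts in wt and 0, 0 and 0 in ko, and Fam205a2, chosen after its values were seen, had 0, 0 and 0 counts in wt and 24, 23 and 20 in ko. All 31-base words of both occur in other annotated genes, and in eWAT Fam205a4 had 21, 15 and 0 counts in wt and 0, 36 and 20 in ko, so the values there did not follow the genotype. The pseudogene Gm48417 had 25, 28 and 30 counts in wt and 0, 0 and 0 in ko in iWAT and 0, 12 and 0 counts in wt and 6, 0 and 5 in ko in iBAT, and 95.9% of its words are shared. Gm2436, called by DESeq2, had 0, 0 and 0 counts in wt and 0, 61 and 109 in ko, and all of its words are shared. For such genes the quantification divides reads between copies by a model, and their values are uncertain.

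Gm37401, annotated as an antisense gene, looked more even. It had 5.07, 5.22 and 4.98 CPM in wt and 1.89, 1.8 and 2.46 CPM in ko, and its log2 fold change was -1.31 ± 0.36 (SE). Of its words 92.7% also occur in Rhoa, so reads of these genes may not be told apart, and in iBAT and eWAT its log2 fold changes were 0.11 and -0.09.

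The locus of Gm15551 was read out through its neighbours. Camk2d, the host gene, had 72.7, 70 and 71.1 CPM in wt and 73.4, 63.1 and 65.2 CPM in ko, and its log2 fold change was -0.08 ± 0.18 (SE) with a 95% interval from -0.464 to 0.296. The groups overlapped. Whether the quantification used strand is not given in the sources used here, but the ko libraries, with Camk2d at 63.1 to 73.4 CPM, held 0 or 1 count of Gm15551. Within 1000000 bp lay 8 genes that encode proteins, Camk2d included, and of these 6 could be tested and 0 had an unadjusted p under 0.05, beside 1.69% of all genes higher and 0.523% lower. The smallest p belonged to Larp7, a component of the 7SK small nuclear ribonucleoprotein, with 19.2, 18 and 26.9 CPM in wt and 18.3, 17.2 and 18.3 CPM in ko and a log2 fold change of -0.26 ± 0.16 (SE). Ank2, a neighbouring ankyrin gene, had a log2 fold change of 0.19 ± 0.38 (SE).

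The genotype effect in iWAT was finally set against the mean of the effects in iBAT and eWAT, which asks whether iWAT responds differently. The fit did not model that the 3 tissues came from the same mice. edgeR again called 0 of 18728 genes at an adjusted p of 0.05 (percent called 0), with 205 higher and 100 lower at an unadjusted p under 0.05 (1.09% and 0.534%). limma called 0 and DESeq2 called 1, the pseudogene Gm2436. For Aldh1a3 the difference of effects was 1.99 in log2 units, and edgeR left it uncalled.

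The precision of the comparison was uneven. The 95% interval of the log2 fold change lay within 1 of 0 for 9884 genes (52.8%), so for these a 2-fold difference was outside the interval. At a mean of at least 10 CPM this held for 7941 of 9714 genes (81.7%). The median SE was 0.347 over all genes and 0.212 at that level. For the other genes the interval reached a 2-fold difference or went beyond it.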

How the data were processed

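PolyA RNA of whole fat pads was sequenced. Per the labels and methods, the authors used cutadapt for trimming and Salmon, on GRCm38, for quantification, and they deposited 1 table of estimated counts, whole numbers per gene, for 54347 genes. The transcripts were those of GENCODE M22, alone or with RNAcentral, and which of these was used for this table, the strand setting and how transcripts were joined to genes are not given in the sources used here. Such estimates divide reads of near-identical genes by a model.

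Here, edgeR 4.0.16 (R 4.3.3) was fitted to all 18 libraries with a mean for each of the 6 groups, TMM scaling, its filter on low counts (18728 genes kept) and the quasi-likelihood test, with Benjamini-Hochberg adjustment over all genes and a threshold of 0.05. The code was tested on simulated data. CPM are counts per 1000000 of the TMM-scaled total. Where a group was at 0, a floor of 3 counts per library was used (0.0974 to 0.128 CPM), which covers counting error only. Intervals are 95.0% intervals. Gene names and positions were taken from the older GENCODE M21 (54094 genes matched). DESeq2 1.42.0, limma 3.58.1, other filters and scalings, covariates and fits without libraries were alternatives.

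Genes were named when they were Gm15551 or Camk2d, the 10 with the smallest p or the largest fold in each direction, the 5 with the smallest p in each direction without lymph node and muscle libraries, called by any fit, or members of a list. Others are said to be chosen after their values were seen. The members, lists and tests were chosen with earlier results of these data known.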

Additional observations from a re-analysis of the deposited data

Results flagged for a closer look

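In 28 measures over the 6 iWAT libraries, mostly the summed CPM of the gene lists, 1 library lay far from the other 5 in 4 cases, where chance alone gives 1.4 (1 in 20). The distance to the nearest library was taken relative to the whole range, with Dixon's critical value for 6 samples. The skeletal muscle list was 5476 CPM in ko 1 (0.997 of the range). The erythroid list was 1764 CPM in ko 1 (0.678) and the Camk2 kinase family 143 CPM in ko 1 (0.679), where 3 of its 4 members had their highest value. The interferon list was 859 CPM in ko 2 (0.659).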

How the results depend on the processing

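Counts of calls were low under every alternative run. Genes past an adjusted p of 0.05 numbered 0 with all libraries, 1 without a filter on low counts, 4 with DESeq2 and 0 to 1 when 1 library was left out (1 without wt 3, Gm15551). The difference between iWAT and the other tissues gave 1 with DESeq2. Gm15551 passed the threshold in 3 of 17 alternatives, with log2 fold changes of -7.58 without a filter (adjusted p 0.0130), -8.00 without wt 3 (0.0130) and -7.85 with DESeq2 (4.34e-07), and adjusted p ranged up to 1. Requiring 10 or more counts in all iWAT libraries removed it. Leaving out 1 library gave -8.00 to -6.98.

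Genes at an unadjusted p under 0.05, 317 higher and 98 lower, were 479 and 162 without a filter, 185 and 33 from the iWAT libraries alone, and 549 and 150 with limma. They were 1281 and 709 with lymph node, muscle and epithelium covariates, which were chosen after seeing the data. Without the lymph node and muscle libraries 164 were lower. Leaving out 1 library gave 184 to 796 higher (184 without ko 1, 547 without ko 3, 796 without wt 3) and 85 to 380 lower (162 without wt 2, 217 without wt 1, 229 without wt 3, 284 without ko 3, 380 without ko 2). The cause of these shifts was not tested.

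Without the lymph node and muscle libraries the log2 fold change turned to -0.41 for Fbn1, -0.30 for Col1a1, -0.62 for Pi16 and -2.13 for Gpc3. With lymph node and muscle covariates it turned to 1.51 for Ucp1 and -0.57 for Myh4, and with epithelium as well to 1.22 for Ucp1, 0.50 for Adipoq, 0.022 for Camk2d and -0.66 for Myh4. Leaving out 1 library gave -1.19 to 3.18 for Ucp1 and -0.35 to 0.15 for Adipoq.

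Replicate numbers did not consistently pair the libraries. Deviations from the group means were correlated over genes between wt and ko libraries with the same number. In iWAT the values were 0.61, -0.56 and -0.28, and wt 3 was closest to ko 2 (0.78). The same-number values were 0.43, -0.01 and 0.35 in iBAT and -0.32, 0.33 and -0.27 in eWAT. Whether mice with the same number shared a litter or a batch was not tested. With the replicate number as a block, 357 genes were higher and 134 lower at an unadjusted p under 0.05, and with the block in the iWAT libraries alone 177 and 35, with log2 fold changes of 0.94 for Ucp1 and 0.024 for Adipoq.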
